A study of Mus musculus with 14 samples.

Results

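The genes described here encode 10 structural proteins of the sperm tail: the fibrous sheath proteins and their binding partners Akap3, Akap4, Ropn1, Ropn1l and Fscb, the outer dense fibre proteins Odf1, Odf2, Odf3 and Odf4, and Smcp of the mitochondrial sheath. They were chosen by name as 10 of the 20626 genes in the RNA tables, and all 10 were found. RNA was read in sorted germ cells from the testes of C57BL/6J adults, with 2 libraries in each of 4 groups, and H3K36me3, the histone mark that Setd2 places over transcribed genes, was read as 1 peak list per group. The groups were pachytene/diplotene spermatocytes (PD) from WT mice, PD from mice with the genotype Setd2KO, round spermatids (RS) from WT mice and RS from Setd2KO mice. Cells of all groups had been sorted on Ho33342/PI staining, that is on Hoechst and propidium iodide. The labels name neither the deleted part of Setd2 nor a promoter or Cre driver, nor do they state whether a group's libraries came from separate animals. P-values therefore reflect only how far these libraries spread, and that spread may be technical.

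The sperm tail is built around an axoneme of microtubules. In the midpiece and principal piece outer dense fibres run along the axoneme, the fibrous sheath encloses the principal piece, and a helix of mitochondria, the mitochondrial sheath, wraps the midpiece. The fibrous sheath also anchors protein kinase A through A-kinase anchoring proteins (AKAPs), and many of its genes are transcribed after meiosis, with the messages stored for translation in later spermatids.

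Depth, worked back from the deposited values in FPKM (fragments per kilobase of a transcript, scaled to a megaread), was 50.8 to 84.9 megareads per library. Setd2, over its whole gene model (chromosome 9, 110435101 to 110521137, plus strand, mm9), gave 21.2 and 19.1 FPKM for PD WT, against 21.0 and 21.4 for PD Setd2KO. Its RS values were 5.24 and 5.58 FPKM for WT against 12.1 and 8.67 for Setd2KO, so its level does not check the genotype, which is taken from the labels. The sorted cells carried their defining markers: 8 spermatocyte genes summed to 608.2 to 770.5 FPKM in the PD libraries and 154.8 to 249.1 FPKM in the RS libraries, and 7 round spermatid genes to 19.5 to 109.4 and 684.2 to 1049.9 FPKM. Markers of Sertoli, Leydig, peritubular myoid, macrophage, and erythrocyte and endothelial cells summed to 0.592 to 14.2 FPKM per list and library, with Sox9, Lhcgr and Des at 0 in 1 PD WT library each.

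In WT cells 7 of the 10 genes were far higher in spermatids and 3 were already at high levels in spermatocytes. Akap3, Akap4, Odf1, Odf3, Ropn1, Fscb and Smcp stood at 1.44 to 9.01 FPKM in the PD WT libraries and at 64.0 to 291 FPKM in the RS WT libraries. Odf2, Odf4 and Ropn1l stood at 101 to 489.9 FPKM in PD WT and at 83.5 to 786 FPKM in RS WT. All 10 genes passed the filter on low values, a group mean that reaches 1 FPKM in 1 or more groups, and the fewest reads behind any of their values were 136. In RS WT the order of mean levels, which can be compared because FPKM is per length, was Odf2 (755 FPKM), Ropn1l (555), Odf1 (285), Ropn1 (251), Akap3 (227), Akap4 (217), Smcp (161), Odf3 (137), Odf4 (87.8) and Fscb (65.5). Of neighbours in that order, the libraries of Ropn1 and Akap3 overlapped and those of the other pairs did not.

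**Figure D1:**
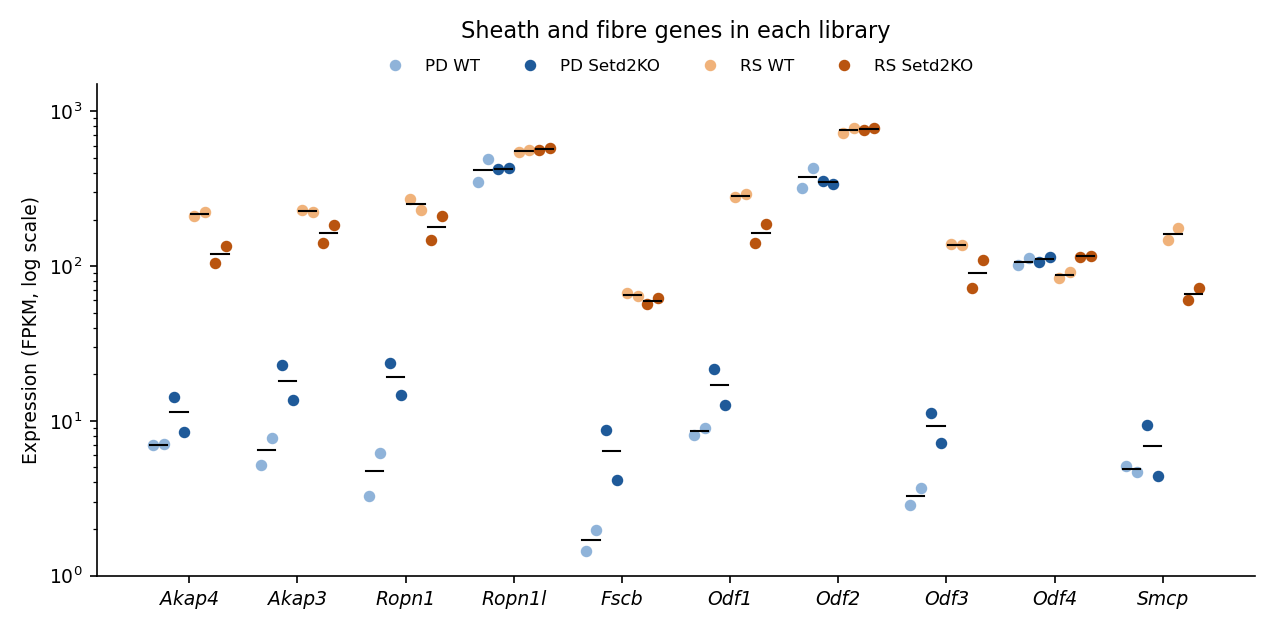
FPKM (log scale) of the 10 genes in every library, 2 points per group with a black bar at their mean, for PD WT, PD Setd2KO, RS WT and RS Setd2KO. The 7 spermatid genes lie between 1.44 and 23.5 FPKM in all PD libraries and between 56.9 and 291 FPKM in all RS libraries, while Odf2, Odf4 and Ropn1l lie above 83 FPKM in every library.

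Akap4 (chromosome X, 6645336 to 6655732, plus strand, mm9) encodes the main protein of the fibrous sheath, which anchors protein kinase A. It gave 6.94 and 7.08 FPKM in the PD WT libraries, 14.3 and 8.52 in those of PD Setd2KO, 210.4 and 223 in those of RS WT and 104 and 135 in those of RS Setd2KO. Both RS Setd2KO libraries were far below both RS WT libraries, and all PD libraries were lower still. Akap3 (chromosome 6, 126803116 to 126824326, plus strand), whose product is the scaffold of the sheath to which Akap4 protein binds, gave 5.17 and 7.78 FPKM in the PD WT libraries, 22.8 and 13.6 in those of PD Setd2KO, 231 and 224 in those of RS WT and 141 and 184 in those of RS Setd2KO. In spermatocytes the Setd2KO libraries were the higher ones, and in spermatids the lower ones.

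Ropn1 (chromosome 16, 34651297 to 34678696, plus strand), a ropporin that binds AKAPs through a domain like that of protein kinase A regulatory subunits, gave 3.27 and 6.16 FPKM in the PD WT libraries, 23.5 and 14.8 in those of PD Setd2KO, 271 and 230.4 in those of RS WT and 147 and 209.8 in those of RS Setd2KO. It had the widest gap between PD Setd2KO and PD WT of the 10 genes on the log2 scale. Its relative Ropn1l (chromosome 15, 31370965 to 31383444, minus strand), with the same AKAP-binding domain, gave 351 and 489.9 FPKM in the PD WT libraries, 426 and 428 in those of PD Setd2KO, 545 and 566 in those of RS WT and 564 and 579 in those of RS Setd2KO. Ropn1l was thus abundant in both cell types, and its Setd2KO and WT libraries overlapped in each. Fscb (chromosome 12, 65572320 to 65575885, minus strand), which binds the calcium-binding sheath protein Cabyr, gave 1.44 and 1.98 FPKM in the PD WT libraries, 8.73 and 4.12 in those of PD Setd2KO, 67.0 and 64.0 in those of RS WT and 56.9 and 62.1 in those of RS Setd2KO.

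Odf1 (chromosome 15, 38148958 to 38156490, plus strand), a main protein of the outer dense fibres, gave 8.14 and 9.01 FPKM in the PD WT libraries, 21.5 and 12.7 in those of PD Setd2KO, 279 and 291 in those of RS WT and 141 and 187 in those of RS Setd2KO. Odf3 (chromosome 7, 148033815 to 148036824, plus strand), also a tail protein, gave 2.88 and 3.68 FPKM in the PD WT libraries, 11.3 and 7.25 in those of PD Setd2KO, 138 and 136 in those of RS WT and 71.9 and 109 in those of RS Setd2KO. Both genes had their lower RS value in the first Setd2KO library. Odf2 (chromosome 2, 29745583 to 29778058, plus strand), which besides the fibres serves centrosomes in other cells, gave 318 and 430.1 FPKM in the PD WT libraries, 357 and 339.9 in those of PD Setd2KO, 724 and 786 in those of RS WT and 752 and 779.9 in those of RS Setd2KO. The PD Setd2KO values of Odf2 refer to another gene model, which starts at 29745240 and whose length worked back to 2248 bases against 2375 in the other tables, so they are not fully comparable. Odf4 (chromosome 11, 68735337 to 68740583, minus strand), a further fibre component, gave 101 and 113 FPKM in the PD WT libraries, 107 and 114 in those of PD Setd2KO, 83.5 and 92.1 in those of RS WT and 115 and 117 in those of RS Setd2KO. It was the gene of the set whose level varied least across the 4 groups.

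Smcp (chromosome 3, 92387788 to 92392946, minus strand), the cysteine-rich protein of the mitochondrial capsule, gave 5.10 and 4.70 FPKM in the PD WT libraries, 9.37 and 4.39 in those of PD Setd2KO, 148 and 175 in those of RS WT and 60.1 and 72.2 in those of RS Setd2KO. As a fold of its WT level it had the largest drop of the 10 genes in RS Setd2KO, while in FPKM Odf1 and Akap4 dropped by more.

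Going from spermatocytes to spermatids in WT, 8 of the 10 genes rose and 0 fell (limma on log2(FPKM + 1), Benjamini-Hochberg adjusted p under 0.05 over all genes), where 36% of the 11452 genes tested rose and 46.7% fell. At unadjusted p under 0.05, 9 rose and 0 fell. Both RS libraries lay above both PD libraries for 9 genes (39.0% of all genes) and below them for Odf4 (50.6%). The all-gene median of this change was −0.21, and relative to it Ropn1 rose by 5.72 on the log2 scale (SE 0.27, adjusted p = 6.78e-09), Odf3 by 5.23 (SE 0.22, 3.89e-09), Akap3 by 5.17, Odf1 by 5.11, Smcp by 4.99, Akap4 by 4.98 and Fscb by 4.84. Adding 1 FPKM before the logarithm understates changes from the low PD levels. In FPKM these 7 genes stood 30.9 to 53.2 times higher in RS WT than in PD WT. Odf2 rose by 1.24 relative to the median, 2.02 times in FPKM (adjusted p = 0.000264). All these adjusted p-values test the changes before the median was taken off, which were 0.42 for Ropn1l and −0.28 for Odf4. Ropn1l (0.63, 0.0534) and Odf4 (−0.07, 0.0938) did not pass, although the Ropn1l change passed under all 3 scalings (0.000447 to 0.0131), with no intensity trend (0.0229) and without either PD WT library (0.0215 and 3.16e-05). Odf4 was called lower with quantile normalization (0.000326), with no trend (0.0346) and without the first PD WT library (0.00912).

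In Setd2KO cells the same step was called higher for 8 genes and lower for 0 (9 and 0 at unadjusted p under 0.05), against 34.2% and 48.5% of all genes. Both RS libraries lay above both PD libraries for all 10 genes (39.6% of all genes) and below for 0 (55.0%). Spermatid levels of the 7 genes were 8.94 to 10.5 times those in Setd2KO spermatocytes. Ropn1l did not pass (adjusted p = 0.0546), but passed under all 3 scalings (0.000198 to 0.000846), with no trend (0.0234), in a fit of the compared groups alone (8.65e-05) and without either PD WT library (9.76e-05 and 9.9e-05). Odf4 did not pass (0.679), but was called higher with median centring (0.00982) and TMM factors (0.00173), so that all 10 genes were called higher under these 2 scalings, where 42.9% and 43.3% of all genes rose and 39.7% and 40.8% fell.

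Promoter sequence was examined because the 7 spermatid genes moved together. RefSeq windows (build GRCm38.p6, whose coordinates differ from mm9) of 250 bases before to 50 after each start were matched for 9 of the 10 genes, 13 windows in all. No window matched Odf1, 1 of the 7 spermatid genes, so its promoter was not searched. The motif TGATGTCA, searched on both strands, is a variant of the cyclic AMP response element TGACGTCA, the site bound by the spermatid activator Crem. It was picked after these windows had been read. It lay in the windows of Akap3, Akap4, Fscb and Smcp, and 4.18% of 27025 genes have it in a window. TGACGTCA itself (2.03% of genes), which contains the core TGACG, and TATAAA (15.7%) were in none of these windows, and TGACG (23.0%) was in those of Odf2. The 28 bases around each TGATGTCA match follow on the gene's strand, 5′ to 3′, with the motif in capitals, to show how alike the sites are.
Akap3, chr6:126853066-126853093, plus strand, motif from 22 bases before the start: atagaaacagTGATGTCActagctgcaa
Akap3, chr6:126853087-126853114, plus strand, motif from 1 base before the start: gctgcaattcTGATGTCActccctagtg
Akap4, chrX:7067470-7067497, plus strand, motif from 35 bases before the start: atagaaacagTGATGTCAtgaattttaa
Fscb, chr12:64474932-64474959, minus strand, motif from 51 bases before the start: gaattggttgTGATGTCAcagacccttg
Smcp, chr3:92589032-92589059, minus strand, motif from base 25 after the start: gagagtattaTGATGTCAtaaaagagct

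The promoters of Akap3 and Akap4, whose proteins are partners in the sheath, shared 20 bases ending in the motif. It was the longest stretch shared by any pair of the 9 genes with a window. In the windows of all genes that stretch, ctatagaaacagTGATGTCA, was found in those 2 genes alone. The 250 bases before each start show it in place, with complete motif matches in capitals.
Akap3, chr6:126852848-126853097, plus strand: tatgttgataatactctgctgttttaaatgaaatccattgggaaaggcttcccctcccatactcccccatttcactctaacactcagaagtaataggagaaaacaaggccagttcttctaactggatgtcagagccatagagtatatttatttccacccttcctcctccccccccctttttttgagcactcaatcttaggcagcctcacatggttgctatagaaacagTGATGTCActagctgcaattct
Akap4, chrX:7067265-7067514, plus strand: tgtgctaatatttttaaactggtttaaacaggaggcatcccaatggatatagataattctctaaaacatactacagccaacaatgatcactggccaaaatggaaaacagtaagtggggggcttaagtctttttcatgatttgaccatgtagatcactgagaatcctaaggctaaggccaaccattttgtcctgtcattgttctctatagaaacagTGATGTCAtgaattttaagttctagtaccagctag

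In spermatids labelled Setd2KO, Smcp, Akap4, Odf1 and Odf3 fell and Odf4 rose, while Odf2 and Ropn1l, the most abundant of the set, did not pass the test and had overlapping libraries. Smcp went from 161 ± 19.2 to 66.1 ± 8.54 FPKM (mean ± SD, n = 2 throughout), 2.44 times lower, Akap4 from 217 ± 9.12 to 119 ± 21.6, 1.82 times lower, Odf1 from 285 ± 8.74 to 164 ± 32.8, 1.73 times lower, and Odf3 from 137 ± 1.52 to 90.3 ± 26, 1.52 times lower. Odf4 went from 87.8 ± 6.06 to 116 ± 1.21 FPKM, 1.32 times higher. Ropn1 went from 251 ± 28.9 to 178 ± 44.7, Akap3 from 227 ± 4.73 to 163 ± 30.5 and Fscb from 65.5 ± 2.13 to 59.5 ± 3.70 FPKM without passing the test, though in a fit of the RS groups alone Akap3 was called lower too (adjusted p = 0.0271), which made 5 genes. In that fit 24.0% of all genes were called lower.

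The log2 changes in RS were −1.27 for Smcp (SE 0.25, limma adjusted p = 0.00204), −0.87 for Akap4 (SE 0.21, 0.00672), −0.80 for Odf1 (SE 0.22, 0.0129), −0.63 for Odf3 (SE 0.22, 0.0404) and 0.40 for Odf4 (SE 0.14, 0.0471). They were −0.51 for Ropn1 (adjusted p = 0.155), −0.49 for Akap3 (0.119), −0.14 for Fscb (0.674), 0.02 for Odf2 (0.932) and 0.04 for Ropn1l (0.875). Thus 4 of 10 fell, where 21.8% of all genes fell, and 1 of 10 rose, where 20.9% rose. Both Setd2KO libraries lay below both WT libraries for 7 of the 10 genes, as for 37.7% of all genes, and above them for Odf4, as for 40.4%. The median over the 10 was −0.50 beside 0.02 over all genes. Smcp kept its call in every alternative run. Akap4 lost it without the first Setd2KO library (0.071), and Odf1 without that library (0.122) or either WT library (0.0595 and 0.0684). Odf3 lost it without the first Setd2KO library (0.331), either WT library (0.149 and 0.122) or either PD WT library (0.0587 and 0.0589), with the replicate block (0.0585) and with a pseudocount of 0.1 FPKM (0.0568). Odf4 lost its call without any 1 of the RS libraries (0.0914 to 0.24) or either PD Setd2KO library (0.105 and 0.106), and with the replicate block (0.0515). Without the first RS Setd2KO library 1 of the 10 fell.

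Levels of marker genes moved in the same libraries. The 6 markers of condensing spermatids (Prm1, Prm2, Prm3, Tnp1, Tnp2 and Hils1, all detected) summed to 4432.3 and 4259.3 FPKM for RS WT but 1381.9 and 1374.3 for RS Setd2KO. The 7 round spermatid markers summed to 1049.9 and 995.3 FPKM for RS WT but 684.2 and 904.6 for RS Setd2KO, and the 8 spermatocyte markers to 159.0 and 154.8 against 249.1 and 218.9 FPKM. Somatic markers were low, and some lists were higher in RS Setd2KO. The 4 peritubular myoid genes summed to 1.65 and 2.93 FPKM for RS WT, against 9.98 and 9.08 for RS Setd2KO. The 6 Sertoli genes summed to 3.21 and 4.59 against 9.03 and 7.72, and the 6 Leydig genes to 9.28 and 4.79 against 10.0 and 14.2. Macrophage genes (2.05 and 3.82 against 3.09 and 2.55) and erythrocyte and endothelial genes (0.954 and 1.63 against 1.36 and 1.66) overlapped. In bulk samples fewer cells of a type and less RNA per cell cannot be told apart, and the part of these differences in the changes of the tail genes was not tested.

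**Figure D2:**
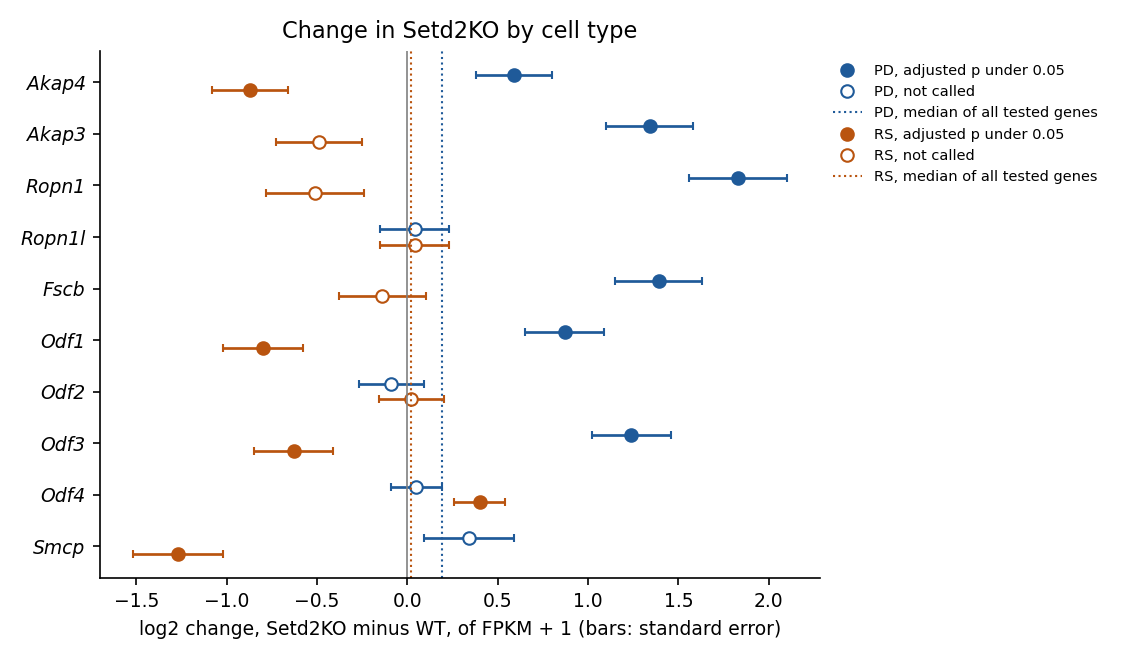
Log2 change of FPKM + 1, Setd2KO minus WT, for each gene in PD (blue) and RS (orange), with bars for the standard error, filled points for limma adjusted p under 0.05 and dotted lines at the median of all genes tested. The 7 spermatid genes lie right of 0 in PD and left of 0 in RS, whereas Odf2 and Ropn1l lie within 1 standard error of 0 in both.

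In spermatocytes labelled Setd2KO 6 of the 10 genes rose and 0 fell (limma, 6 and 0 at unadjusted p under 0.05), where 29.8% of all genes rose and 6.3% fell. With median centring 5 rose and 0 fell, against 11.8% and 15.9% of all genes, and with quantile normalization 5 and 0, against 13.2% and 15.6%. Both Setd2KO libraries lay above both WT libraries for the same 6 genes (56.6% of all genes) and below for 0 (14.5%), and the other 4 genes overlapped. The all-gene median was 0.19, and adjusted p-values test the changes before it was taken off. Relative to it Ropn1 rose by 1.64 on the log2 scale (SE 0.27, adjusted p = 0.000877), 4.07 times in FPKM. Fscb rose by 1.20 (0.00172), Akap3 by 1.15 (0.00198), Odf3 by 1.05 (0.002), Odf1 by 0.68 (0.0109) and Akap4 by 0.40 (0.0473). Smcp stood at 0.15 (0.30), Odf4 at −0.14 (0.807), Ropn1l at −0.15 (0.870) and Odf2 at −0.28 (0.734).

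The call of Akap4 in PD was weak: it was lost under all 3 scalings (adjusted p = 0.123 to 0.204), with the replicate block (0.0674) and without 5 of the libraries taken 1 at a time, among them the first Setd2KO library (0.25 on the deposited scale, 0.446), either PD WT library (0.147 and 0.113) and either RS WT library (0.0698 and 0.0696). Odf1 lost its call without the first Setd2KO library (0.127) or the first PD WT library (0.0708). Smcp was called without the second Setd2KO library (0.81 on the deposited scale, 0.0144). Without the first PD WT library Odf2 (−0.30) and Ropn1l (−0.20) were lower, and without the second Ropn1l was higher (0.28). The direction of Ropn1l thus turned with the library left out. The first PD WT library had a lower FPKM sum over all genes than the second (181915 against 225288), and the part of this was not tested.

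The 7 spermatid genes stood in the PD libraries at a small share of their spermatid level, which was higher in Setd2KO. As a percentage of the mean RS level of the same genotype, they were at 1.3% to 3.20% in the first and 2.46% to 3.42% in the second PD WT library. In the first PD Setd2KO library they were at 11.9% to 14.7% and in the second at 6.64% to 8.38%. For 510 other spermatid-specific genes, which reached 20 FPKM in RS WT with a PD WT mean 20-fold lower or more, the medians in these libraries were 1.92%, 2.76%, 13.1% and 7.66%. Because the 510 genes were chosen by low PD WT levels, the rule limits their PD WT shares but not their Setd2KO shares. The 7 spermatid genes meet the same rule. Smcp, at 14.2% and 6.64% in PD Setd2KO, lay within the range of the other 6 in the first library and just below it in the second, although it did not pass the test against PD WT. The 7 round spermatid markers summed to 19.5 and 28.9 FPKM for PD WT, against 109.4 and 61.2 for PD Setd2KO. The 6 condensing spermatid markers went the other way, from 186.9 and 167.2 FPKM for PD WT to 163.4 and 106.0 for PD Setd2KO. The part of spermatid RNA in the PD rises was not tested. The Setd2KO shares divide by a lowered RS level. Against the RS WT mean, a denominator chosen after seeing the data, the 7 genes were at 5.82% to 13.3% and 2.73% to 6.29% in the PD Setd2KO libraries, and the medians of the other genes were 9.25% and 5.57%. Smcp was lowest of the 7 in both, and its 2.73% in the second library lay below its PD WT shares of 3.17% and 2.92%. The 6 spermatogonia markers summed to 20.3 and 21.3 FPKM for PD WT, against 36 and 43.2 for PD Setd2KO, and their part was not tested either. The share of the same-genotype RS mean was 42.1% to 57.0% for Odf2, 63.1% to 88.2% for Ropn1l and 92.3% to 128% for Odf4.

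**Figure D3:**
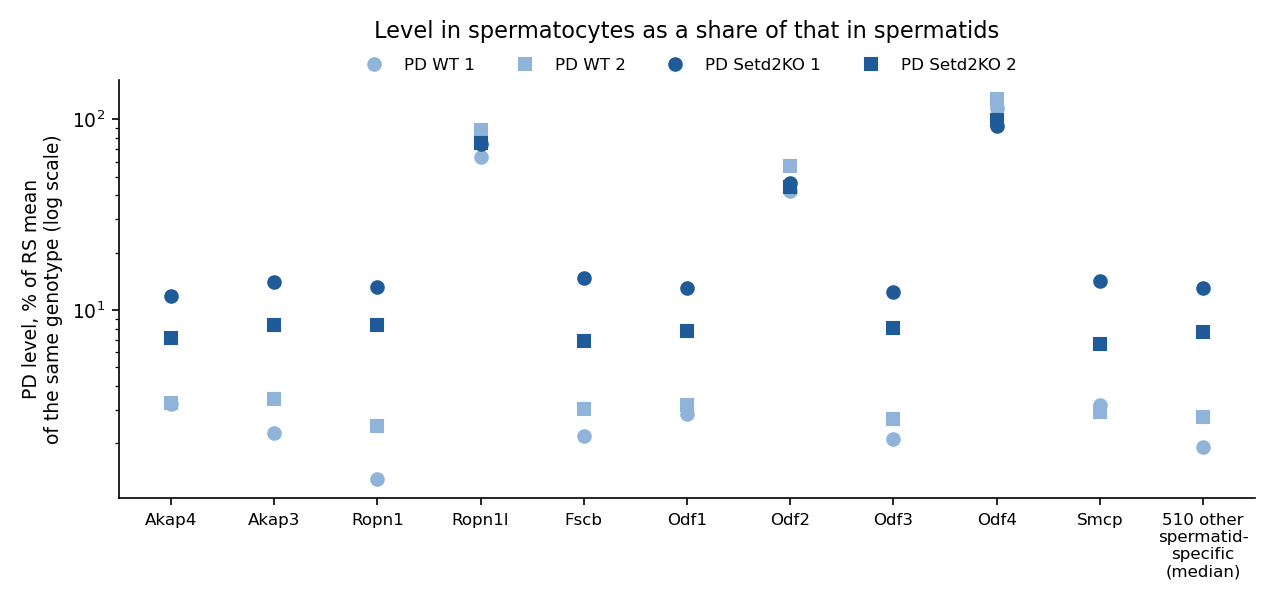
Level of each gene in each PD library as a percentage (log scale) of the mean RS level of the same genotype, with circles for the first and squares for the second library, beside the median of 510 other spermatid-specific genes. The rule that chose the 510 genes limits their PD WT shares but not their Setd2KO shares. The 7 spermatid genes lie at 1.3% to 3.42% in PD WT and at 6.64% to 14.7% in PD Setd2KO, around the medians at the right, and Odf2, Odf4 and Ropn1l lie above 42%.

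The effect labelled Setd2KO differed between the cell types for the 7 spermatid genes, which were all called lower in the test of the difference (RS effect minus PD effect), and 0 genes were called higher (0 at unadjusted p under 0.05). Of all genes, 27.3% were called lower and 7.76% higher. The count of 7 was the same under all 3 scalings, but with median centring 16% of all genes were called lower and 22.5% higher, and with quantile normalization 18.1% and 20.3%. Relative to the all-gene median of −0.16 the differences were −2.19 for Ropn1 (adjusted p = 0.00132), −1.71 for Odf3 (0.00142), −1.68 for Akap3 (0.00219), −1.52 for Odf1 (0.00224), −1.46 for Smcp (0.005), −1.37 for Fscb (0.0057) and −1.3 for Akap4 (0.00345). Odf2 (0.26, 0.781), Ropn1l (0.15, 0.995) and Odf4 (0.50, 0.219) did not pass, with adjusted p for changes before the median was taken off. Without the first PD WT library these 3 genes were called higher (0.0317, 0.0439 and 0.0334), and without the second Ropn1l was called lower (0.0415).

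H3K36me3 lay over 4 of these genes in PD WT and 3 in RS WT. In PD WT 4 of the 10 had a peak over at least 1 base, against 95.4% of autosomal genes with 5 FPKM or more and 95.3% of those with 50 FPKM or more. In RS WT 3 of the 10 had a peak, against 79.5% and 75% of such genes. Of the 10, 9 are autosomal. In PD WT 5 of these reached 5 FPKM and 4 of the 5 had a peak, Odf1 being the exception, and the 4 below 5 FPKM had none. In RS WT all 9 reached 50 FPKM and 3 had a peak. With 1 list per group there is no replicate check. The samples include input libraries for PD but none for RS, and the part of this in differences between PD and RS peaks was not tested. Odf4 lay wholly inside 1 peak in both lists, at chr11:68724285-68740908 in PD WT and chr11:68724580-68740731 in RS WT (mm9). Ropn1l had 93.1% (PD WT) and 92.1% (RS WT) of its bases under 3 peaks each. Akap3 was covered over 42.2% by 5 peaks in PD WT, where it stood at 6.48 FPKM, and over 68.2% by 2 peaks in RS WT, where it stood at 227 FPKM.

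Odf2 was covered over 99.4% in PD WT, by 3 peaks with authors' scores of 959.3 to 2064.68, and had no peak in RS WT, where its RNA was higher and the nearest peak was 12.6 kb away. Odf1, Odf3, Ropn1, Fscb, Smcp and the X-linked Akap4 had no peak in either WT list, and the X chromosome carried 0 peaks in both. Odf3 ended 0.4 kb before the nearest PD WT peak and 0.3 kb before the nearest RS WT peak, so with 1000 bases added on each side 5 genes had a peak in PD WT and 4 in RS WT. Fscb lay 439.0 kb and 439.3 kb from the nearest WT peak. No Setd2KO peak lay over any of the 10 genes, against 1.49% (PD) and 4.73% (RS) of autosomal genes with 5 FPKM or more and 0.632% and 3.18% of those with 50 FPKM or more. The nearest such peak, in RS Setd2KO, was 38.4 kb from Smcp.

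**Figure D4:**
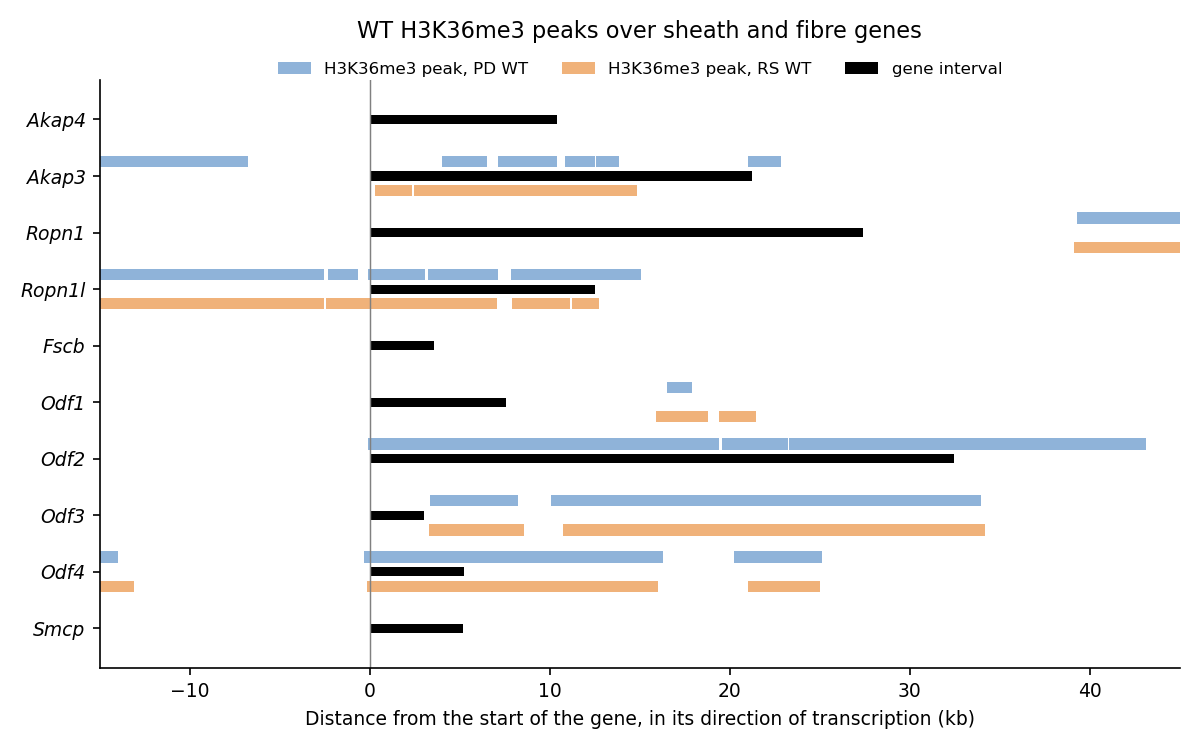
Gene intervals (black) and WT H3K36me3 peaks of PD (blue, above) and RS (orange, below) by distance in kb from each gene's start in its direction of transcription, drawn from 15 kb before to 45 kb after it. Odf4, Ropn1l and Akap3 carry peaks in both cell types, Odf2 in PD alone, and the other 6 genes in neither.

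Set beside the RNA, the 4 genes that fell in RS Setd2KO were all among the 6 without a WT peak, and of the 4 genes with a WT peak in either list 0 fell. Akap4 is among the 4 that fell, and it could not carry a peak because the X chromosome had 0 peaks in both WT lists. In RS WT 169 X-linked genes reached 5 FPKM. Akap3, with a peak, had both RS Setd2KO libraries below both RS WT libraries. It was called lower in the limma fit of the RS groups alone (adjusted p = 0.0271). These are few genes, and a link was not tested. Odf4 and Ropn1l, with no peak in RS Setd2KO, had mean levels of 116 and 571 FPKM there against 87.8 and 555 FPKM in RS WT. Among 462 other autosomal spermatid-specific genes, 359 (77.7%) had no RS WT peak. Their median log2 change in RS was −0.52 and 47.4% fell, and for the 103 with a peak the median was −0.58 and 47.6% fell. Of all other autosomal genes that reached 50 FPKM in RS WT, 857 had a peak and 13.9% of them fell, and 281 had none and 36.7% of them fell.

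Partners of these proteins moved in both directions in RS, while in PD every call was a rise on the deposited scale. On that scale the all-gene median in PD was 0.19. The lists were not rerun under the 3 scalings, with which fewer of all genes rose in PD and more fell. Lists were written with earlier results of these data known, and no list test was made. Of 6 tested fibrous sheath partners (Cabyr, Fsip1, Spa17, Rhpn1, Gapdhs and Akap14), 4 rose and 0 fell in PD (limma, 4 and 0 at unadjusted p under 0.05; 29.8% and 6.3% of all genes), with a median of 0.53 relative to all genes. In RS 0 rose and 0 fell, 0 and 2 at unadjusted p under 0.05, where 20.9% and 21.8% of all genes rose and fell, with a median of −0.34 beside 0.02 over all genes. Cabyr, the calcium-binding protein to which Fscb binds, gave 3.35 and 4.87 FPKM in the PD WT libraries, 17.2 and 12 in those of PD Setd2KO, 203 and 200.3 in those of RS WT and 118 and 183 in those of RS Setd2KO. Its PD rise was 1.42 relative to the median (adjusted p = 0.000757). Gapdhs, the sperm glycolytic enzyme bound to the sheath, rose by 0.60 (0.0474) in PD and Akap14, a further anchoring protein, by 0.72 (0.00103).

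Of 8 tested outer dense fibre relatives and partners 4 rose and 0 fell in PD (4 and 0 at unadjusted p under 0.05; 29.8% and 6.3% of all genes). In RS Odf2l rose while Oaz3 and Odf3b fell, counts of 1 and 2 of 8 near the 20.9% and 21.8% of all genes. Oaz3, a testis antizyme, went from 390.0 and 389 FPKM in RS WT to 179 and 241 FPKM in RS Setd2KO (log2 change −0.90, adjusted p = 0.00619). Odf3b went from 3.26 and 3.99 to 2.09 and 1.79 FPKM (−0.65, 0.000953), and Odf2l, a relative of Odf2, from 12 and 11.8 to 17 and 15.8 FPKM (0.44, 0.0129). In PD Spag4, which binds Odf1 protein, rose by 1.24 relative to the median (0.00114), Odf3l1 by 1.12 (0.0019) and Oaz3 by 0.42 (0.0443).

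Among the 6 subunits of protein kinase A, the enzyme that AKAPs tether, 3 rose and 2 fell in RS, where 20.9% and 21.8% of all genes did. Prkar2a, the type II regulatory subunit that docks on AKAPs, went from 13.3 and 12.1 FPKM in RS WT to 4.97 and 5.11 FPKM in RS Setd2KO (log2 change −1.18, adjusted p = 1.67e-05). Prkar1a, a type I regulatory subunit, rose from 16.7 and 22 to 28 and 27.5 FPKM (0.51, 0.0165), and the catalytic subunit Prkacb rose from 0.277 and 0.282 to 0.895 and 0.758 FPKM (0.51, 0.000642). Prkar2b also rose and Prkar1b fell, named here after their values were seen. Prkacb stayed below 1 FPKM in all RS libraries, and Prkar2b went from 0.589 and 0.58 to 1.15 and 1.09 FPKM. The filter of 1 FPKM let in both only through Setd2KO groups, so the RS count of 3 rises rests largely on genes near the floor. In PD 3 subunits rose and 0 fell (3 and 1 at unadjusted p under 0.05; 29.8% and 6.3% of all genes): Prkar1a by 0.30 relative to the median (0.0243), Prkacb by 0.22 (0.00375) and Prkar2b by 0.10 (0.0222). These adjusted p-values test the changes before the median was taken off, which were 0.49, 0.41 and 0.30. Prkacb (0.763 and 0.652 FPKM in PD WT, 1.2 and 1.34 in PD Setd2KO) reached the filter of 1 FPKM in PD Setd2KO alone. Prkar2b (0.705 and 0.927 FPKM in PD WT, 1.25 and 1.21 in PD Setd2KO) reached it in Setd2KO groups alone. Both thus entered the test through groups where they were high, so their rises add no support to the counts.

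Of 7 mitochondrial sheath genes 2 rose and 0 fell in PD (3 and 0 at unadjusted p under 0.05), near the 29.8% and 6.3% of all genes, namely Spata19 and Armc12, both by 1.32 relative to the median. In RS 1 rose and 0 fell (1 and 0 at unadjusted p under 0.05), against 20.9% and 21.8% of all genes, and it was Vdac3, a mitochondrial outer membrane channel, which went from 136 and 134 to 198 and 199 FPKM (0.55, 0.0293).

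The genes most like the set in their pattern over the 8 libraries were Spz1, Spata20, Prr27, Prr22 and Cylc2. Likeness was the root mean square distance between each gene's centred log2(FPKM + 1) values and the median of the 10 genes, and it was 0.09 for Spz1, 0.10 for Spata20, Prr27 and Prr22 and 0.11 for Cylc2. Among the 10 genes themselves it ran from 0.15 for Odf1 to 0.42 for Ropn1 in the 7 spermatid genes, and it was 1.46 for Odf2, 1.77 for Ropn1l and 2.04 for Odf4. Spz1 stood at means of 9.8 FPKM in PD WT, 20.9 in PD Setd2KO, 288.4 in RS WT and 187.0 in RS Setd2KO.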

How the data were processed

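RNA values were used as deposited. Per the submitters' processing notes the authors made FPKM values with CASAVA, TopHat2, Cufflinks and Cuffdiff on build mm9, with no versions given, from polyadenylated RNA and a directional kit per the labels. H3K36me3 peaks are 1 deposited list per sample, with a score per peak from the authors. The processing notes name CASAVA, Bowtie and bedtools, and the peaks carry MACS names. The scale of the score and any use of the spike-in chromatin are not given in the sources used here. Input libraries are listed for PD WT and PD Setd2KO, with none for RS WT or RS Setd2KO, and they were not analysed here.

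Depth, and each gene's length and read number, were worked back as the values that made reads whole within 0.003. The 11452 of 20626 genes whose group mean reached 1 FPKM in 1 or more groups were fitted as log2(FPKM + 1) with limma 3.58.1 in R 4.3.3, with an intensity trend and 1 mean per group over all 8 libraries, two-sided, and Benjamini-Hochberg adjustment over all genes. Residual degrees of freedom were 4, to which moderation added 6.92. Changes called relative have the all-gene median of their contrast taken off, and p-values are those against 0 on the deposited scale. Simulated data with the levels of 11452 genes had 200 genes changed by 1 on the log2 scale in RS. The fit called 200 of these 200, and 12 others. The spread of the simulated libraries is not given here, so this count does not measure the power for the sperm tail genes. In the real data the standard errors of their RS changes ran from 0.14 (Odf4) to 0.27 (Ropn1). A peak counted for a gene that it overlapped by at least 1 base of the interval in that group's table.

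The members, lists and tests were chosen with earlier results of these data known. All 10 members were named, with Setd2, up to 3 called genes of largest change per list and contrast, and the 5 most alike profiles among genes of at least 5 FPKM. Other lists were cell type markers of spermatogonia (5.18 to 6.66 FPKM summed in RS) and those given in the results. Alternatives were another pseudocount (0.1), other filters, no trend, 3 scalings, a replicate block, fits of the compared groups alone, each library left out, and for peaks a score of at least 100, flanks of 1000 bases and at least 50% cover.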

Additional observations from a re-analysis of the deposited data

Results flagged for a closer look

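The effect labelled Setd2KO differed between spermatids and spermatocytes, by limma's test of the difference itself, for 7 of the 10 genes. All 7 were called lower, where 27.3% of all genes were called lower and 7.76% higher. The difference (RS effect minus PD effect, log2, deposited scale) was −2.34 for Ropn1, −1.87 for Odf3, −1.83 for Akap3, −1.68 for Odf1, −1.62 for Smcp, −1.52 for Fscb and −1.46 for Akap4, with adjusted p of 0.00132 to 0.0057. Taken alone, the PD effect passed for 6 of the 7 (not Smcp, adjusted p = 0.3) and the RS effect for Smcp, Akap4, Odf1 and Odf3 (not Akap3, 0.119, Ropn1, 0.155, or Fscb, 0.674). Of all genes, 29.8% rose in PD and 21.8% fell in RS.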

How the results depend on the processing

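Of the single-gene changes recomputed under alternatives, 554 were called as before in the same direction, 38 lost the call, 31 gained one in the same direction and 2 gained one with the sign reversed. A further 231 were called neither before nor after and had the same sign or a value rounding to 0, and 14 such uncalled changes had the other sign. In RS the count of genes called higher, 1 as reported, was 0 with a filter at 5 FPKM and 0 with the replicate block, and the count called lower, 4 as reported, was 2 with no filter on low values. In the change from PD to RS in WT the count called lower, 0 as reported, was 1 with no intensity trend and 1 with quantile normalization. In the difference between the cell types the count called higher, 0 as reported, was 1 with median centring, 1 with quantile normalization and 1 with TMM factors. With 1 library left out at a time, where the lone library of that group is assumed to vary like the other groups, the count called lower in PD ran from 0 to 2, called higher in RS from 0 to 1, called lower in RS from 1 to 4, called lower from PD to RS in WT from 0 to 1, and called higher in the difference from 0 to 3. Ropn1l was −0.20 and 0.28 in PD and 0.24 and −0.24 in the difference without the first and the second PD WT library, and so reversed. In the change from PD to RS in Setd2KO 8 genes were called higher as reported and 10 with median centring or TMM factors. With no filter on low values the PD calls of Akap4 and Odf1, the RS calls of Odf1 and Odf3, and the difference of Fscb and Smcp were lost; the cause was not tested. Smcp in RS kept its call in every alternative run. With the RS WT mean as denominator, the median PD share of spermatid-specific genes was 9.25% and 5.57% in the Setd2KO libraries. The count of genes with a WT peak was 3 to 5 in PD and 3 to 4 in RS over the peak alternatives.

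Groups share replicate numbers, but same-numbered libraries did not deviate together (correlations of −0.31 to 0.07). With 2 libraries per group this check cannot tell whether the numbers mark a shared animal or day. The replicate block gave 5 genes higher in PD and 3 lower in RS. Crossing the numbers, chosen after seeing the data, gave 1 higher and 6 lower in RS. Each value of the 10 genes rests on at least 136 reads, and the 2 libraries per group limit the precision.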
